A study of Mus musculus with 6 samples.

Results

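A set of 45 genes for focal adhesion proteins and actin regulators was followed in primary mouse stromal cells placed on collagen with or without aortic carboxypeptidase-like protein (ACLP). Members are set by symbol, with no threshold on a measured value, in a list drawn up from adhesion and actin biology when earlier results of these data were known, and all 45 were found among the 56748 genes of the count table. Gonadal white fat supplied the cells as its stromal vascular fraction, a mixed suspension left once adipocytes are removed, from wild-type male and female C57B1/6 donors (spelled as in the labels) aged 12 weeks. They were plated directly on 12 kPa plates whose coat was type I collagen at 0.05 mg/mL, and harvested at 48 h. In the col1 group the collagen polymerized alone (0 nM ACLP, 3 libraries). In the col1-ACLP group it polymerized with 30 nM recombinant ACLP, a collagen-binding secreted protein encoded by Aebp1 (3 libraries). The labels call the cells mesenchymal stem cells, but the plated fraction was not sorted, and RNA of several cell types was counted in every library. Nothing in the labels ties a library to its own animal or culture, so the p-values reflect spread among the libraries, part of which may be technical, although the study describes biological replicates.

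A focal adhesion is the plaque through which a cell holds its matrix. Integrins cross the membrane, talin and kindlin bind their cytoplasmic tails, and vinculin, alpha-actinin, filamin and tensin tie the plaque to actin filaments. LIM-domain proteins such as zyxin and paxillin assemble on this scaffold, and kinases such as FAK signal from it. Free actin monomers hold back the coactivator MRTF, and once released it acts with serum response factor (SRF) at a DNA element called the CArG box. Many of the genes followed here are known targets of that pathway, and in fat stroma the same machinery accompanies the change of progenitors into myofibroblasts.

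Library totals ranged from 33343651 to 47142754 counts and did not separate the groups (two-sided exact permutation test, p = 1). Ribosomal RNA was 0.281% ± 0.040 (SD, n = 3) of col1 counts and 0.527% ± 0.050 (SD, n = 3) of col1-ACLP counts, with no overlap between groups (exact permutation test, p = 0.1, the smallest that 3 against 3 allow). The library col1-ACLP 1 stood apart in the members and by gene length. It was the highest of the 6 for 20 of the 45 members. The lowest of the 6 was col1 3 for 17 members and col1 1 for 12. The chi-square per degree of freedom of col1-ACLP 1 against col1-ACLP 2 was 70.1, whereas the other replicate pairs ranged from 24.6 to 37.5. For col1-ACLP 1 against col1-ACLP 3 it was 28.9, so the value of 70.1 marks a pair and not 1 library. The mitochondrial share was highest in col1-ACLP 2, at 6.14% of counts. The difference of col1-ACLP 1 from the other col1-ACLP libraries grew with gene length over the members, with a Spearman correlation of 0.62 across 45 genes. Across the 8109 tested genes at least as abundant as the lowest member the correlation was 0.49. Genes of a library share its RNA and depth, so these correlations describe the library. The results that follow are therefore also given without col1-ACLP 1 where they change.

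Fold changes compare col1-ACLP with col1 and come from edgeR's quasi-likelihood test on the counts, with p-values adjusted over all 17717 genes that passed the filter on low counts. All 45 members passed. Raised or lowered here means an adjusted p under 0.05 together with an absolute log2 fold change above 0.58, which 1.38% of the tested genes met. Levels are in CPM, which puts every library on the same total, with TMM adjustment. In these bulk libraries, fewer cells of a type and less RNA per cell cannot be told apart.

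Of the 45 members, 4 were raised on col1-ACLP, namely Vcl, Fhl2, Palld and Actn1, and 0 were lowered. That is 8.89% of the members, whereas 0.660% of all tested genes were raised, and 1.02% of those at least as abundant as the lowest member. DESeq2 (0.976% of all tested genes raised), limma-voom (0.683%) and each other scaling called the same 4 members. With the fold threshold dropped, 6 members were higher at an adjusted p under 0.05 (0.931% of all tested genes) and 0 lower (1.12%). The remaining members shifted less. The log2 fold change was above 0 for 31 of the 45 (68.9%), against 51.1% of all tested genes and 53.5% of the abundant ones. Its median was 0.10, against 0.01 over all tested genes. In 16 members (35.6%) every col1-ACLP library lay above every col1 library, which held for 10.2% of all tested genes and 13.1% of the abundant ones. In 4 members (8.89%), namely Fhl1, Ezr, Diaph1 and Src, every col1-ACLP library lay below, against 10.2%. Without col1-ACLP 1 the members' median was again 0.10 and Fhl2, Palld and Actn1 were raised, while Vcl was not.

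**Figure D1:**
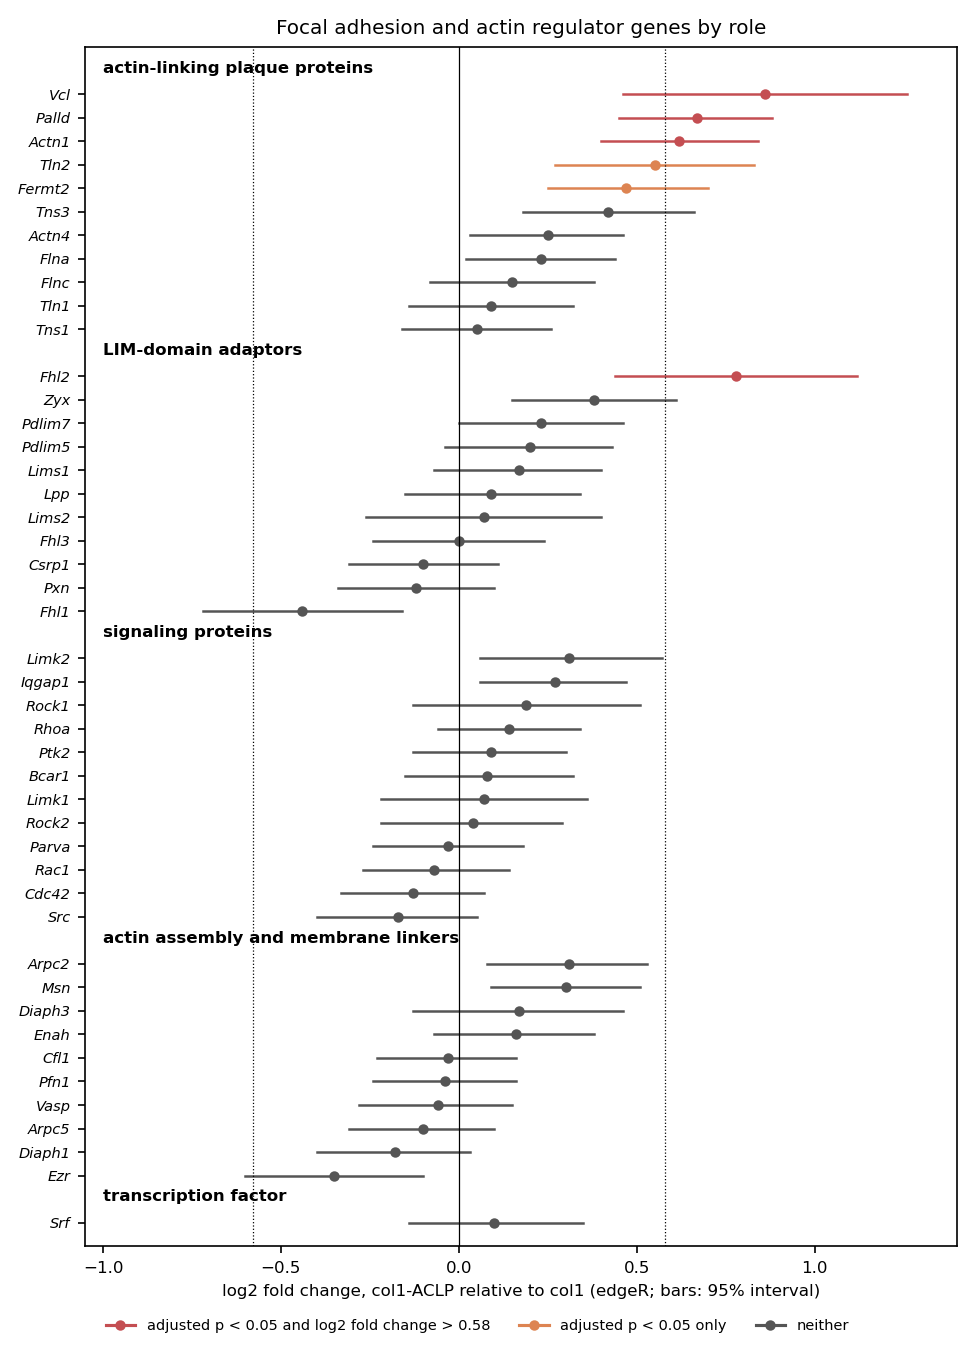
Log2 fold change of each of the 45 members, col1-ACLP relative to col1 (horizontal axis, edgeR, 3 against 3 libraries), grouped by the protein's role; points are estimates, bars 95% intervals and dotted lines the threshold of 0.58 in either direction. The 4 raised members are in red. All 11 genes placed here in the actin-linking plaque class lie right of 0, whereas the actin assembly genes lie on both sides.

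Of the 4 raised members, 3 were placed in the class of actin-linking plaque proteins, namely Vcl, Palld and Actn1. Of the 11 genes in that class, 3 were raised (27.3%, against 0.660% of all tested genes and 1.02% of the abundant ones). The log2 fold change of all 11 was above 0 (51.1% of all tested genes), and their median was 0.42. In 8 of the 11 (72.7%) every col1-ACLP library lay above every col1 library, against 10.2% of all tested genes and 13.1% of abundant ones. Without col1-ACLP 1 the median of the 11 was 0.31 and 10 of them lay above 0. Without col1 1 it was 0.35, with all 11 above 0. The 11 LIM-domain genes had 1 raised member and a median of 0.09. The 5 kinase and scaffold genes held no called member and had a median of 0.08, and the 10 genes of actin assembly and membrane linkage held none and had a median of -0.04. The classes are a choice, drawn up with earlier results of these data known, and their borders set these counts. Palld was placed in the plaque class and Parva (-0.03) in the kinase and scaffold class. The difference between classes was not tested.

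Sequences before the gene starts were searched because the MRTF-SRF pathway reads actin state through the CArG box. RefSeq promoter windows on GRCm38.p6, each 250 bases before to 50 after a start, were at hand for 37 of the 45 members (52 windows). A CArG box, searched on both strands, was found in 5 of the 37 genes (13.5%), against 1.81% of all 27025 genes with a window and 1.68% of tested genes with a window. It was also found in 10.5% of other adhesion genes and 7.81% of other actin regulators. The 5 genes were Vcl, Fhl2, Fermt2, Srf and Fhl1, while the windows of Palld and Actn1 held none. The 250 bases before the start are printed 5′ to 3′ on the gene's strand for the members described next, with the CArG box in capitals. Vcl (chr14:20929148-20929397, plus strand) has it 227 bases before the start, Fhl2 (chr1:43163962-43164211, minus strand) 31 bases before 1 of its 2 starts that have a box (the other, at 96 bases, is not shown), Fermt2 (chr14:45530066-45530315, minus strand) 204 bases before, and Fhl1 (chrX:56779433-56779682, plus strand) 102 bases before.
Vcl: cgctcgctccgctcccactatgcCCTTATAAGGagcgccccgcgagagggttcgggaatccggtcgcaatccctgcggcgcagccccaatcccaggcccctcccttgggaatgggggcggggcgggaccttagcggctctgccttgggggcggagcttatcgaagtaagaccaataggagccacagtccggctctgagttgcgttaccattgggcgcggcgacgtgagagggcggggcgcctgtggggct
Fhl2: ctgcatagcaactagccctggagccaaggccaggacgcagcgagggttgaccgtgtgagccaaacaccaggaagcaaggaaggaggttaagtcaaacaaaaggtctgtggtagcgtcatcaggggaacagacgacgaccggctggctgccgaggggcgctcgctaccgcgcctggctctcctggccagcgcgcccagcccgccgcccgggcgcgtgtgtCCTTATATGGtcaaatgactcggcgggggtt
Fermt2: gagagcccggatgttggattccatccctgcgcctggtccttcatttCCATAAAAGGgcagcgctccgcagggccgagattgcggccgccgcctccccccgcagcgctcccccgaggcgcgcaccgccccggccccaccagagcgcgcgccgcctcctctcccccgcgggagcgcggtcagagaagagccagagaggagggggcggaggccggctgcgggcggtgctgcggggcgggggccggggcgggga
Fhl1: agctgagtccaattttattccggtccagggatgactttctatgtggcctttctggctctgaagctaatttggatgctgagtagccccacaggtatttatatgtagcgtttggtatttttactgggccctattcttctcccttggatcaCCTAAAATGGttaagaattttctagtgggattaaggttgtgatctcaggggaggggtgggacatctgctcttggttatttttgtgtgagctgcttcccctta

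Vcl encodes vinculin, which binds talin and actin and strengthens the plaque under load. Its level was 24.0, 27.1 and 22.7 CPM in the col1 libraries and 63.3, 32.3 and 38.6 CPM in the col1-ACLP libraries. The groups did not overlap, but col1-ACLP 1 was far above the others. The log2 fold change was 0.86 ± 0.19 (SE, 95% interval 0.46 to 1.26, edgeR adjusted p = 0.0255), the largest among the members. Without col1-ACLP 1 it was 0.52 (edgeR adjusted p = 0.133), and the call was also lost without col1 1 (0.84, adjusted p = 0.108) or col1 3 (0.79, adjusted p = 0.122).

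Vcl lies on chromosome 14 from 20979466 to 21083744 on the plus strand (positions of the count table, read as GRCm39) and meets Ap3m1, a gene for an adaptor complex subunit, on the opposite strand. Their exons share 2104 bases, 24.6% of the exon bases of Vcl, and Ap3m1 had 14878 counts in all where Vcl had 8454. The sources used here do not say whether reads were counted by strand, so reads of one gene could enter the count of the other. Ap3m1 was at 47.5, 68.4 and 57.7 CPM on col1 and at 65.1, 52.0 and 71.5 CPM on col1-ACLP. Those groups overlapped (log2 fold change 0.12 ± 0.14, edgeR adjusted p = 0.784). Ap3m1 was highest in col1-ACLP 3 and Vcl in col1-ACLP 1. Whether reads of Ap3m1 entered the Vcl counts was not tested.

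Palld encodes palladin, a scaffold of actin bundles and stress fibers that binds alpha-actinin, on chromosome 8 from 61964467 to 62355724 on the minus strand. Palld was at 125.3, 122.2 and 115.9 CPM on col1 and at 208.8, 189.6 and 177.8 CPM on col1-ACLP. The spread inside each group was small beside the gap. The log2 fold change was 0.67 ± 0.10 (SE, 95% interval 0.45 to 0.88, edgeR adjusted p = 0.00174), and Palld was called whichever single library was left out (0.60 to 0.72).

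Actn1 encodes alpha-actinin 1, which cross-links actin filaments and bridges them to the plaque, on chromosome 12 from 80214321 to 80307145 on the minus strand. It was at 166.6, 204.3 and 189.8 CPM on col1 and at 286.3, 271.2 and 304.7 CPM on col1-ACLP. The lowest col1-ACLP library was well above the highest col1 library. The log2 fold change was 0.62 ± 0.10 (SE, 95% interval 0.40 to 0.84, edgeR adjusted p = 0.00391), so the interval reached below the fold threshold. Without col1 1 the value was 0.54 (adjusted p = 0.0173), past the test but under that threshold, and without col1-ACLP 3 it was 0.58 (adjusted p = 0.0413), likewise not called.

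Talins couple integrin tails to actin, and talin 2 (Tln2) was the lower of the pair per length in these cells. Tln2 was at 54.0, 44.6 and 41.4 CPM on col1 and at 79.3, 60.4 and 65.4 CPM on col1-ACLP (log2 fold change 0.55 ± 0.13, edgeR adjusted p = 0.0396), without overlap. This passed the test below the fold threshold. Tln2 has long exons, and without col1-ACLP 1 its log2 fold change was 0.43 (adjusted p = 0.185). It also missed the test without col1 2, col1 3 or col1-ACLP 3 (adjusted p = 0.113 to 0.198). Without col1 1 (0.67, adjusted p = 0.0262) or col1-ACLP 2 (0.63, adjusted p = 0.0271) it was called raised. Tln1, the more abundant talin, had a log2 fold change of 0.09 ± 0.11 with overlapping groups. The gene Creb3 overlaps Tln1 on the opposite strand with 22.9% as many counts.

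Fermt2 encodes kindlin 2, the integrin activator of mesenchymal cells. It was at 104.4, 127.2 and 126.1 CPM on col1 and at 170.5, 161.6 and 164.4 CPM on col1-ACLP. The col1-ACLP libraries were close to each other and all above col1 (log2 fold change 0.47 ± 0.11, 95% interval 0.25 to 0.70, edgeR adjusted p = 0.0264), though under the fold threshold. With each library left out in turn the value was 0.38 to 0.51 and the adjusted p 0.0491 to 0.117. It missed the test without col1 1, col1 3, col1-ACLP 1 or col1-ACLP 3.

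Among the other plaque genes, none passed the test. Tns3, a tensin that links actin to integrins, had a log2 fold change of 0.42 ± 0.11 (edgeR adjusted p = 0.0735) and its relative Tns1 0.05 ± 0.10 (adjusted p = 0.880). Actn4, the second non-muscle alpha-actinin, was at 0.25 ± 0.10 (adjusted p = 0.245). The actin cross-linkers Flna and Flnc were at 0.23 and 0.15.

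**Figure D2:**
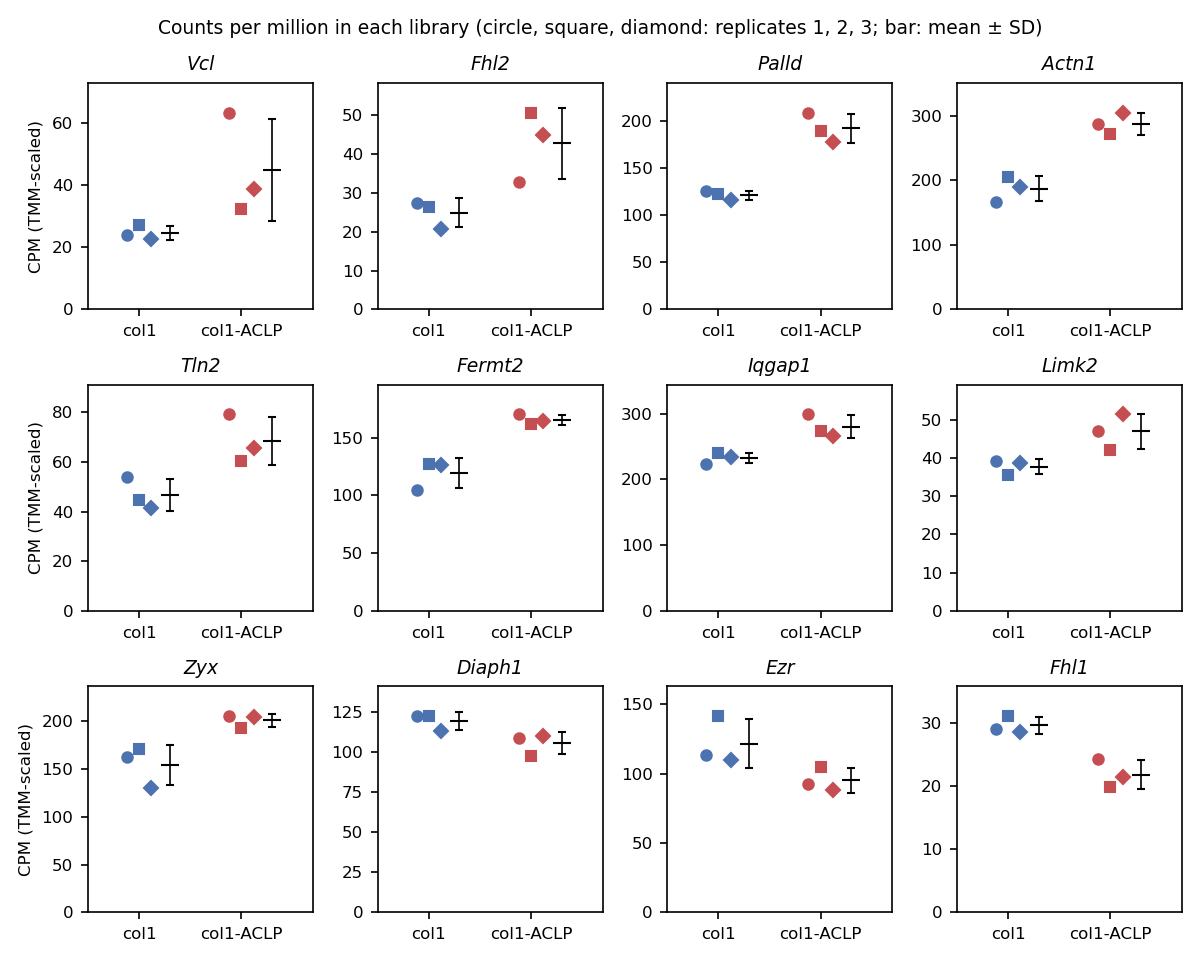
CPM after TMM scaling (vertical axes, each starting at 0) of 12 members in each col1 (blue) and col1-ACLP (red) library; circles, squares and diamonds are replicates 1, 2 and 3, and the black bar is the mean ± SD of 3. Most of the 12 were picked by fold change or test result, and groups do not overlap in any of these panels. Of all 45 members, 16 were separate upward and 4 downward, against 10.2% of all tested genes in each direction. The Vcl value of 63.3 in col1-ACLP 1 stands far from the other libraries.

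Fhl2 encodes a LIM-only adaptor that binds integrin tails and also acts as a transcriptional cofactor, and it lies on chromosome 1 from 43162234 to 43236144 on the minus strand. Fhl2 was at 27.5, 26.5 and 20.7 CPM on col1 and at 32.8, 50.7 and 44.8 CPM on col1-ACLP. Here col1-ACLP 1 was the lowest of its group, the reverse of Vcl. The log2 fold change was 0.78 ± 0.16 (SE, 95% interval 0.44 to 1.12, edgeR adjusted p = 0.0160). Without col1-ACLP 1 it was 0.94 (adjusted p = 0.00456). The call was lost without col1 3 (0.65, adjusted p = 0.113), col1-ACLP 2 (0.64, adjusted p = 0.0588) or col1-ACLP 3 (0.75, adjusted p = 0.0850).

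Its relative Fhl1 had the lowest log2 fold change of all members. Fhl1 encodes a LIM-only protein best known from skeletal muscle. It was at 29.0, 31.2 and 28.7 CPM on col1 and at 24.2, 19.8 and 21.5 CPM on col1-ACLP, every col1-ACLP library lying below col1. This did not pass the adjusted test (log2 fold change -0.44 ± 0.13, 95% interval -0.72 to -0.16, edgeR adjusted p = 0.106). Fhl3, the remaining family member, was at 0.00 ± 0.11. The log2 ratio of Fhl2 to Fhl1 within a library was -0.08, -0.24 and -0.47 on col1 and 0.43, 1.35 and 1.06 on col1-ACLP. Fhl1 thus had the higher CPM of the pair in every col1 library and Fhl2 in every col1-ACLP library. The genes are of unlike length (Fhl1 3714 bases and Fhl2 1897 in the table). Per kilobase Fhl2 was the higher in every library, on col1 at 14.5, 13.95 and 10.89 against 7.81, 8.40 and 7.71 for Fhl1.

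Zyx encodes zyxin, which moves to tensed actin fibers. It was at 162.3, 170.4 and 130.5 CPM on col1 and at 205.8, 193.0 and 203.8 CPM on col1-ACLP, without overlap, but missed the threshold (log2 fold change 0.38 ± 0.11, edgeR adjusted p = 0.0930). Its relative Lpp was at 0.09 ± 0.12. The other LIM genes ranged from -0.12 for Pxn (paxillin) to 0.23 for Pdlim7, with Pdlim5, Lims1 and Lims2 above 0 and Csrp1 below it. None of these passed the test.

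The study names Iqgap1 and Limk2, with Actn1 and Myl9, among up-regulated cytoskeletal regulators that drove its pathway enrichment in these cells. That enrichment scores sets of genes and is not the test of single genes used here. Iqgap1 encodes a scaffold that binds Rac1, Cdc42 and actin, and was at 223.8, 240.1 and 234.0 CPM on col1 and at 299.4, 273.8 and 266.1 CPM on col1-ACLP (log2 fold change 0.27 ± 0.10, edgeR adjusted p = 0.186). Limk2 encodes a kinase that inactivates cofilin, and was at 39.2, 35.5 and 38.6 CPM on col1 and at 47.1, 42.2 and 51.4 CPM on col1-ACLP (0.31 ± 0.12, adjusted p = 0.215). In both genes the groups were separate, yet neither passed the adjusted test, and each 95% interval lay between 0.06 and 0.57.

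The remaining signaling genes moved little. Ptk2, which encodes FAK, was at a log2 fold change of 0.09 ± 0.10 and its substrate scaffold gene Bcar1 at 0.08 ± 0.11. Src, the kinase that works with FAK, was at -0.17 ± 0.11, and Parva, a partner of integrin-linked kinase, at -0.03 ± 0.10. The GTPase genes Rhoa, Rac1 and Cdc42 were at 0.14, -0.07 and -0.13, and the kinase genes Rock1, Rock2 and Limk1 at 0.19, 0.04 and 0.07. The 95% intervals of these 10 genes all included 0 and excluded a log2 fold change of 0.58 in either direction.

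Among the actin assembly and membrane linker genes, values went both ways. Ezr encodes ezrin and Msn moesin, relatives that tie actin to the membrane. Ezr was at 113.1, 141.9 and 109.8 CPM on col1 and at 92.6, 105.0 and 87.9 CPM on col1-ACLP (log2 fold change -0.35 ± 0.12, edgeR adjusted p = 0.152). Msn was at 563.4, 694.5 and 672.2 CPM on col1 and at 824.3, 768.8 and 786.1 CPM on col1-ACLP (0.30 ± 0.10, adjusted p = 0.146). Neither passed the test, though both separated the groups, in opposite directions. Ezrin is also typical of epithelial and mesothelial cells. The summed level of 8 epithelial markers was 101.2 to 103.4 CPM on col1 and 59.0 to 79.2 CPM on col1-ACLP, with 2 lowered (Krt7 and Cldn4) and all 8 below 0 on the log2 scale. That of 11 mesothelial markers was 323.2 to 432.2 and 319.7 to 362.0 CPM, with 1 lowered (Upk3b). Their part in the value of Ezr was not tested.

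Diaph1, a formin that elongates actin filaments, was at 123.1, 123.1 and 113.3 CPM on col1 and at 109.0, 97.8 and 110.4 CPM on col1-ACLP. The groups were separate by a small gap, and the log2 fold change of -0.18 ± 0.10 did not pass (edgeR adjusted p = 0.442). Arpc2, a subunit of the Arp2/3 complex that branches actin, was at 0.31 ± 0.11 (adjusted p = 0.176), and Arpc5 of the same complex at -0.10 ± 0.10. The monomer-handling genes Cfl1 (cofilin) and Pfn1 (profilin) were at -0.03 and -0.04, with intervals within -0.24 and 0.16. Between 10.9% and 41.3% of the 31-base words of Pfn1, Vasp, Cfl1 and Rhoa transcripts also occur in transcripts of genes elsewhere, so their counts are less certain.

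Ratios within a library compare related genes free of its scaling. Of 16 pairs of relatives, 8 did not overlap between groups, and the share over other gene pairs was not computed. Each of the 8 was at the smallest p that 3 against 3 libraries allow (two-sided exact permutation test, p = 0.1, adjusted over 16 pairs 0.2), so none could pass a threshold of 0.05. The ratios among Fhl1, Fhl2 and Fhl3 are fixed by one another, so the 8 are not all separate results. The pair that moved most was Fhl2 to Fhl1, with a mean log2 ratio of -0.26 ± 0.20 (SD, n = 3) on col1 and 0.95 ± 0.47 (SD, n = 3) on col1-ACLP. Msn to Ezr went from 2.41 ± 0.18 to 3.06 ± 0.16 (SD, n = 3 each).

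Of the 4 pairs of plaque paralogs, those of alpha-actinins and talins did not overlap between groups, and those of tensins and filamins did. The log2 ratio of Actn1 to Actn4 was -0.93, -0.75 and -0.66 on col1 and -0.53, -0.42 and -0.24 on col1-ACLP. That of Tln1 to Tln2 was 2.88, 3.02 and 3.00 in the col1 libraries and 2.46, 2.56 and 2.49 in those on col1-ACLP. The share of Actn1 and of Tln2 in each pair was thus higher in every col1-ACLP library. The differences were 0.38 and -0.46, and 0.45 and -0.44 without col1-ACLP 1. Actn1 and Actn4 are of like length (5533 and 6127 bases in the table), whereas Tln2 is listed at 18357 bases and Tln1 at 9801. The other separate pairs were Fhl2 to Fhl3, Fhl3 to Fhl1, Diaph1 to Diaph3 and Vasp to Enah. Vasp is listed at 2617 bases and Enah at 21452. The ratio of Tns1 to Tns3 differed by -0.36 with overlapping groups (two-sided exact permutation test, p = 0.2). The ratios of Flna to Flnc, Rac1 to Cdc42, Pdlim7 to Pdlim5 and Lims1 to Lims2 differed by at most 0.09 between group means.

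**Figure D3:**
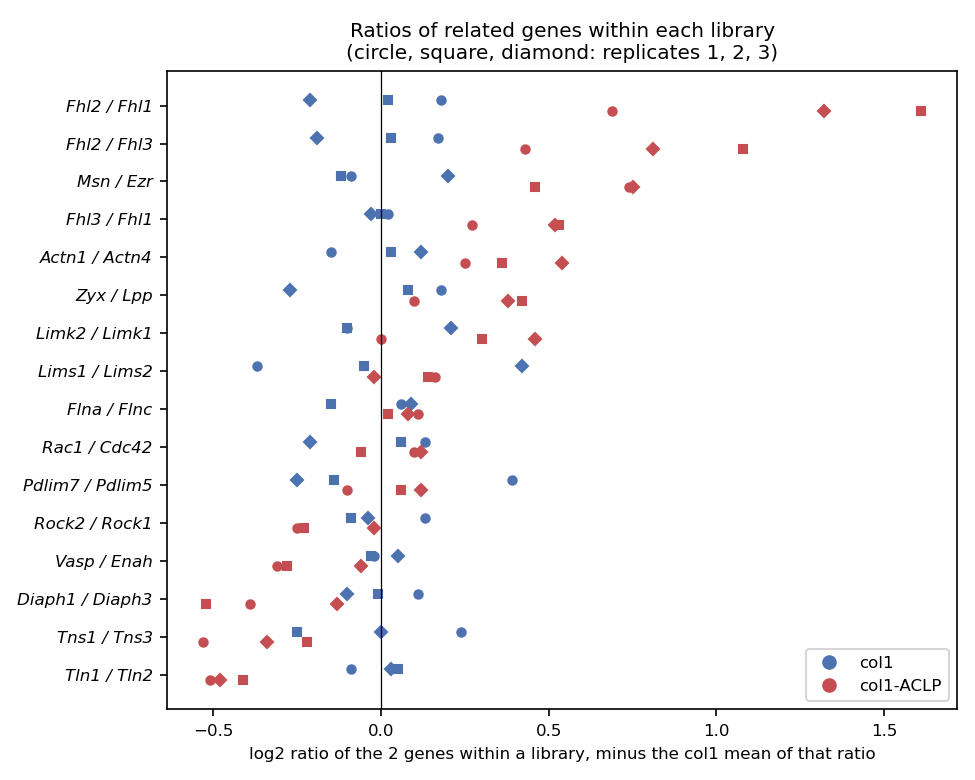
Log2 ratio of 2 related genes within each library, minus the col1 mean of that ratio (horizontal axis), for 16 pairs; blue points are col1, red points col1-ACLP, and circles, squares and diamonds replicates 1, 2 and 3. The red points of Fhl2 to Fhl1 lie furthest right and those of Tln1 to Tln2 lie left of all blue points.

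Levels were compared between members per kilobase of gene length (CPM divided by the length in the table). The most abundant on col1 were Pfn1 (mean 352.1), Cfl1 (331.5) and Cdc42 (240.9), the first pair overlapping only on col1-ACLP. Arpc5 followed at 121.0, then Msn, Csrp1 and Arpc2 at 101.7 to 94.5, whose libraries overlapped. The lowest were Tln2 (2.54) and Vcl (3.01), then Diaph3, Rock1 and Enah at 3.48 to 3.74, again overlapping. By this measure the raised members were not among the abundant ones. Actn1, the highest of the 4, ranked 12 of 45 by its mean over the 6 libraries, and Vcl ranked 41. This order depends on the listed length, which need not be that of the transcripts present. For Vcl, the 24.6% of exon bases shared with Ap3m1 also makes the level less certain. The members together held 0.953% ± 0.028 (SD, n = 3) of counts on col1 and 1.01% ± 0.03 (SD, n = 3) on col1-ACLP (exact permutation test, two-sided, p = 0.2).

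**Figure D4:**
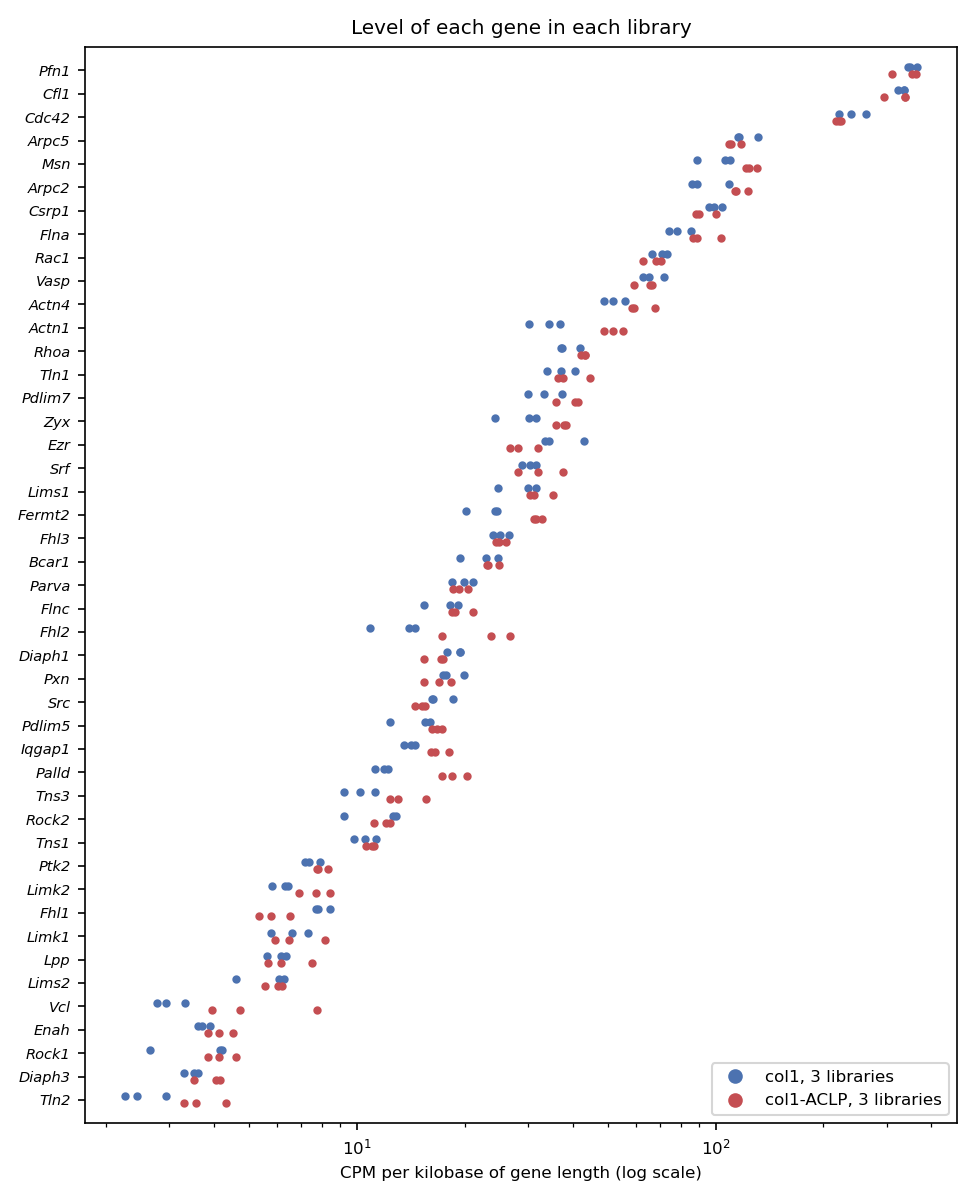
CPM per kilobase of gene length (horizontal axis, log scale) of the 45 members in each library, ordered by their mean over the 6 libraries; blue points are col1 and red points col1-ACLP. Pfn1, Cfl1 and Cdc42 lead, and Tln2 and Vcl are among the 5 lowest members.

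Fold changes rose with gene length, over the members (Spearman correlation 0.31 across 45 genes) and over the 8109 abundant tested genes (0.30). Genes of 2000 bases or less had a median log2 fold change of -0.06 in that wider set, and genes above 16000 bases 0.18. The gap between members and all abundant genes of like length was largest at 4000 to 8000 bases, with medians of 0.17 (15 members) and 0.02. It was small elsewhere. Members of 2000 bases or less (3) had 0.00 against -0.06, and those of 2000 to 4000 bases (10) -0.05 against -0.04. Members of 8000 to 16000 bases (11) had 0.15 against 0.10, and those above 16000 bases (6) 0.17 against 0.18. Without col1-ACLP 1 the correlation was 0.20 over the members and 0.14 over the abundant genes. Leaving out col1 1 gave 0.26 and 0.21. With an offset for length in the fit, added after seeing the data, Actn1 (0.61), Fhl2 (0.85) and Vcl (0.78) were raised. Palld was at 0.57 (edgeR adjusted p = 0.00407), just under the fold threshold, and Tln2 at 0.38 (adjusted p = 0.168). The plaque genes then had a median of 0.31, with 9 of 11 above 0. Iqgap1, listed at 16538 bases, was at 0.12, Enah at 0.00, Lpp at -0.07 and Tns1 at -0.10. Over all members the offset left 29 of 45 above 0, a median of 0.07 and a length correlation of -0.01.

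**Figure D5:**
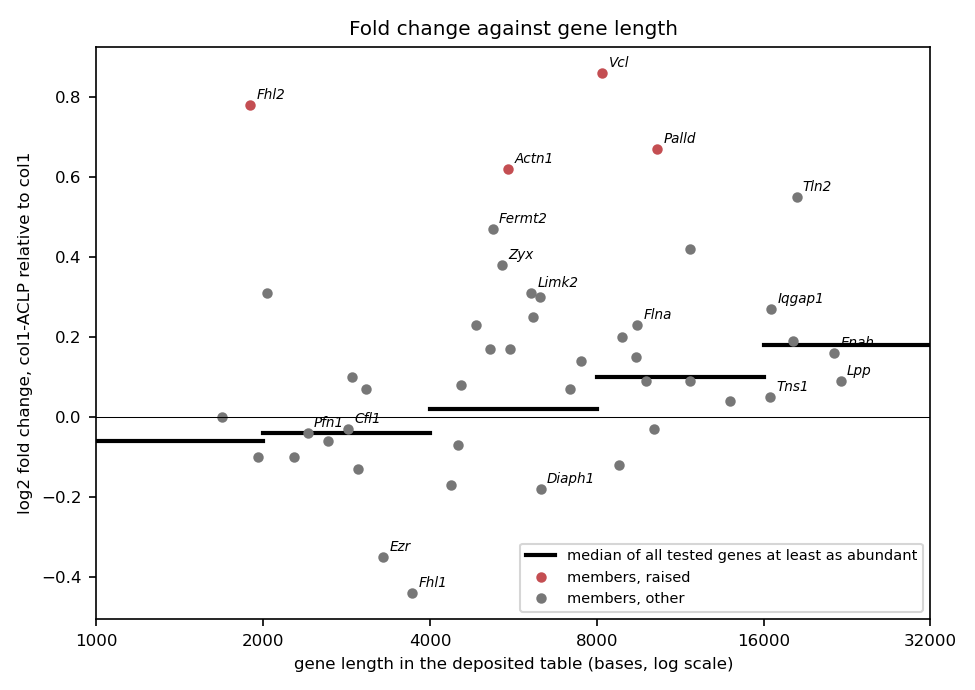
Log2 fold change of the 45 members (vertical axis) against gene length in bases (log scale); red points are the 4 raised members, grey points the others, and black lines the median of the tested genes at least as abundant as the lowest member in each length range. The black lines climb from -0.06 to 0.18, and the raised members lie above them at lengths from 1897 to 10292 bases.

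The genes with a box did not move as a set: Vcl and Fhl2 were raised, Fermt2 passed the test below the fold threshold, and Fhl1 had the lowest fold change of the 45. Srf itself, which encodes the factor that binds the box, has boxes at 82 and at 62 bases before its start (chr17:46556163-46556412, minus strand). Srf was at 91.3, 88.0 and 83.6 CPM on col1 and at 81.2, 108.7 and 92.6 CPM on col1-ACLP, with overlapping groups (log2 fold change 0.10 ± 0.12, edgeR adjusted p = 0.756). They are in capitals here.
Srf: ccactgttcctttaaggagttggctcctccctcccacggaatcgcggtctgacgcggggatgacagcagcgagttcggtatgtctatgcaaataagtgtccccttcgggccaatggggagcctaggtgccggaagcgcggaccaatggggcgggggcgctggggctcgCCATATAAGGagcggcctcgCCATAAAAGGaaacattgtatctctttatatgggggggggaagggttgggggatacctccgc

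A short motif bound by TEAD factors, the partners of YAP in sensing of stiffness, was searched on both strands as GGAATG, whose matches in these windows did not overlap a CArG box. It was in the windows of 8 of 37 members (21.6%), against 16.6% of all genes and 14.8% of tested genes with a window, 23.7% of the other adhesion genes and 15.6% of the other actin regulators. Vcl and Palld are among the 8. A match is a stretch of letters in this window and no measure of binding.

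Other genes of the machinery were taken from lists that the members are not on. Of 53 tested adhesion genes (further LIM, plaque, adaptor and calponin genes), 0 were raised or lowered by edgeR, DESeq2 or limma-voom. At an unadjusted p under 0.05 in edgeR, 12 were higher (7.60% of all tested genes) and 5 lower (7.26%), and the median log2 fold change was 0.03. Of 70 tested actin regulators, 2 were raised (2.86%, against 0.660% of all tested genes) and 0 lowered, with a median of 0.06. The log2 fold change was above 0 for 50 of the 70 (71.4%), a share like the 68.9% of the members. It was above 0 for 30 of the 53 adhesion genes (56.6%). Both raised genes encode parts of the contractile motor.

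Myh9, the heavy chain of non-muscle myosin IIA, was at 436.6, 464.1 and 396.0 CPM on col1 and at 860.2, 619.7 and 681.3 CPM on col1-ACLP (log2 fold change 0.74 ± 0.12, edgeR adjusted p = 0.00270). Myl9, a regulatory light chain that the study also names, was at 26.5, 20.2 and 18.2 CPM on col1 and at 29.1, 35.3 and 36.7 CPM on col1-ACLP (0.64 ± 0.16, adjusted p = 0.0409). The groups were separate for both, Myl9 by a narrow gap. Myh9 was raised in every alternative run, whereas Myl9 lost its call without col1 2, col1 3, col1-ACLP 2 or col1-ACLP 3 (0.52 to 0.61) and with library totals only (0.61, adjusted p = 0.0539).

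Markers of the cell types in the fraction were read beside these values. The summed level of 11 stromal progenitor markers was 14529 to 16616 CPM on col1 and 15898 to 21938 CPM on col1-ACLP. Most of that sum was Col1a1 (mean 5022 and 8690 CPM) and Col1a2 (4321 and 6005 CPM), so it follows these collagen genes. Of the 11 markers, 3 had a log2 fold change above 0 and 8 below it, with a median of -0.27. Col1a1 was raised, and Cd34, Ly6a and Pi16 were lowered. Past the test but under the fold threshold were Dcn (-0.57, edgeR adjusted p = 0.00668) and Col1a2 (0.47, adjusted p = 0.0398). The summed level of 12 markers of mural and smooth muscle cells, which are rich in actin regulators, was 491.2 to 505.8 and 500.6 to 625.2 CPM. Of these, 0 of 11 tested were called, with a median of 0.13. Macrophage markers (13) stood at 639.4 to 767.1 and 632.3 to 725.1 CPM, and endothelial markers (11) at 1214 to 1444 and 1056 to 1346 CPM, with 0 called in either. Mast cell markers had 3 of 5 tested genes lowered, at a summed level of at most 44.3 CPM in any library. Adipocyte markers (9) stood at 365.6 to 492.7 and 293.0 to 419.4 CPM, most of it Fabp4 (310.0 to 430.8 and 242.4 to 354.4 CPM). The 14 proliferation genes stood at 752.3 to 878.0 and 882.9 to 966.5 CPM, and 0 were called in either set. Lymphocyte markers stayed at 2.01 CPM or less, with Ms4a1 at 0 in all libraries. The part of these cell types in the members' values was not tested.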

How the data were processed

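The authors deposited 1 table of whole-number counts per gene for the 6 polyA libraries, with gene positions and lengths and 0 other per-sample columns. The study states HISAT2 on GRCm39, whereas the processing notes name mm10. Of the 45 members, 43 had a start or end within 1000 bases of GENCODE vM39 on GRCm39. The sources used here do not give the counting program or its use of strand. Genes were filtered with filterByExpr (minimum count 10, total 15), scaled by TMM and tested in edgeR 4.0.16 (glmQLFit and glmQLFTest, two-sided, group only, R 4.3.3), with Benjamini-Hochberg adjustment. A detection floor of 3 counts is 0.0624 to 0.0889 CPM and covers counting error only. Alternatives were other scalings, no filter, DESeq2 1.42.0, limma 3.58.1 (voom), a replicate block, each library left out and, added later, a gene length offset (loess span 0.3). Values in every library are given for members past both thresholds, those past the test alone, the 3 lowest, and Actn1, Iqgap1 and Limk2. Of other lists, genes past both thresholds are named. Ap3m1 is given because it overlaps Vcl. Values per library for Zyx, Msn and Srf were added after they were seen. The members and lists were chosen with earlier results of these data known. The summary of 1 gene class is not reported here. The fitting was tested on simulated data.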

Additional observations from a re-analysis of the deposited data

How the results depend on the processing

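No result turned its direction past a test. The count of raised members was 2 to 4 with each library left out: without col1 3 it was 2 (Actn1 and Palld), and without col1-ACLP 3 it was 2 (Palld and Vcl). The members' median log2 fold change was 0.09 to 0.14 with a library left out and 0.07 to 0.10 otherwise. Raised genes among the other actin regulators numbered 1 with library totals only, 1 with the replicate block, 3 with no filter on low counts and 1 to 2 with a library left out. Among the other adhesion genes 1 was raised with the gene length offset (Ajuba). Over all tested genes, 117 raised became 200 with no filter on low counts and 68 to 166 with a library left out, and 128 lowered became 189 and 71 to 123. DESeq2 gave 173 raised and 185 lowered.

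Same-numbered libraries did not visibly deviate together (correlations -0.02, -0.01 and -0.03). The labels do not say whether they share animals or cultures, and these correlations cannot settle it. With the replicate block 4 members were raised, 101 of all tested genes were raised and 93 lowered, and Myl9 was not called (log2 fold change 0.65, edgeR adjusted p = 0.0938). The precision is set by 3 libraries a group: the widest 95% interval of an uncalled member, that of Lims2, ran from -0.26 to 0.40 on the log2 scale.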
